A study of Mus musculus with 119 samples.

Results

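RNA was sequenced from muscle stem cells (satellite cells) of young mice labelled wild type or knockout for 3 FoxO transcription factors, 30 days after tamoxifen. The experiment holds 5 of the 119 samples of the series: 2 libraries labelled FoxO1,3a,4KO (KO) and 3 labelled FoxO1,3a,4WT (WT). They were chosen by the genotype at the end of each column name of the deposited count table. All 5 samples are labelled Young and CD34All, a name that the labels set apart from the CD34Hi and CD34Lo gates of other experiments. Uninjured skeletal muscle was dissociated, cells bearing CD45, CD31 or Sca-1 were removed, and cells positive for both α7-integrin and CD34 were collected and lysed without culture.

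The genotype comes from the labels. The 30 days of tamoxifen come from the title of the count table alone, since the treatment field of the labels is blank and their protocol speaks of mice without previous treatment. The labels do not name the Cre driver, the deleted parts of the genes, the age in months, or whether samples of a group came from separate mice, so the tests below rest on library-to-library spread that may be partly technical. No label ties a column to a single sample, so the libraries are called WT1 to WT3 and KO1 and KO2 in column order. Each column name carries a number that reads as a date. No such number is shared by WT and KO columns, so whatever it marks cannot be told apart from the genotype in any comparison below.

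FoxO1, FoxO3a and FoxO4 are forkhead transcription factors of the insulin and IGF pathway. When growth factor signalling activates the kinase Akt, Akt phosphorylates them and they leave the nucleus. When signalling is low they enter the nucleus and activate genes of cell cycle arrest, stress resistance, autophagy, protein breakdown and feedback on insulin signalling. Satellite cells lie quiescent beneath the basal lamina of muscle fibres, are marked by the transcription factor Pax7, and leave quiescence after injury through a Myod1-positive and then a Myog-positive state.

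Total counts were 47.0, 21.2 and 25.7 M in WT1 to WT3 and 77.4 and 26.6 M in KO1 and KO2. Genes with at least 10 counts numbered 11710 to 12873 in WT and 13768 and 13381 in KO. Pearson correlations of log2(CPM + 1) across genes were 0.927 to 0.957 between WT libraries, 0.972 between the KO libraries and 0.936 to 0.972 between genotypes, where CPM is a library's count per 1e+06 after TMM scaling. The WT libraries therefore differed among themselves as much as from KO, with WT1 and WT3 farthest apart. No pair of libraries looked like 1 library deposited again, since the smallest chi-square of a pair was 44.3 times its degrees of freedom. All 5 libraries held the Y-linked transcript Ddx3y, at 238 to 582 CPM, and Xist stayed at or under 1.19 CPM. Satellite cell markers were present in each library, with Pax7 at 14.3 CPM or more and Des, the muscle intermediate filament, at 1078 CPM or more. Ptprc, which encodes CD45, was at 0 in 4 libraries and at 1.01 CPM in WT1, and Pecam1, which encodes CD31, ran from 2.82 to 12.9 CPM.

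The targeted genes were examined first. Foxo4 (chromosome X, 101254528 to 101260873, mm10) stood at 39.6, 37.8 and 32.5 CPM in WT1 to WT3 and at 1.59 and 2.23 CPM in KO. Foxo1 (chromosome 3, 52268336 to 52353221) stood at 55.0, 71.8 and 63.1 CPM in WT and at 9.42 and 9.28 CPM in KO. For both genes the KO libraries lay far below every WT library. Foxo4 was 19.3-fold lower (log2 fold change -4.27 ± 0.40 SE) and Foxo1 was 6.77-fold lower (-2.76 ± 0.30), each with an adjusted p of 0.0268 in edgeR's quasi-likelihood test. Foxo3 (chromosome 10, 42181841 to 42276755), which encodes FoxO3a, stood at 26.9, 14.1 and 15.5 CPM in WT and at 15.8 and 26.1 CPM in KO. The groups overlapped completely (log2 fold change 0.15 ± 0.42, unadjusted p = 0.728). Counts were made over whole genes, so a transcript that lacks only a deleted exon still counts, and the Foxo3 values do not show whether the deletion took place. Foxo6, the family member not targeted, stood at 3.69, 6.24 and 7.31 CPM in WT and at 14.9 and 7.12 CPM in KO, with overlapping groups (unadjusted p = 0.132).

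Besides Foxo1 and Foxo4, 4 genes fell in KO: Wbp1l, Txnip, Ypel3 and Cited2. The 8 genes that rose were Col1a1, Igf1, Dlk1, Tnc, Nes, Col5a3, Sparc and Meg3. Of 13562 genes tested these 14 passed an adjusted p of 0.05 in edgeR, 8 higher in KO (0.059% of the genes) and 6 lower (0.0442%). At an unadjusted p under 0.05 in edgeR there were 787 genes, 429 higher and 358 lower in KO. These counts over 13562 genes are the background for the counts at that p given below for each list. DESeq2 passed the same 14 and 164 others, giving 79 higher (0.821% of 9618 genes with an adjusted p) and 99 lower (1.03%). Without WT2 or without WT3 edgeR called 0 genes (1123 and 697 at an unadjusted p under 0.05), and the adjusted p of the 14 genes rose to as much as 0.465. The count was 26 without WT1, 7 without KO1 and 4 without KO2, while all 14 kept their direction in each omission. Where 1 KO library remained, its spread was taken to be that of the WT libraries. Below, "rose" and "fell" are used of genes that passed edgeR's test, and genes that passed DESeq2 alone are named as such. List members named for passing DESeq2 alone, and others given to show a role, were chosen after their values were seen.

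**Figure D1:**
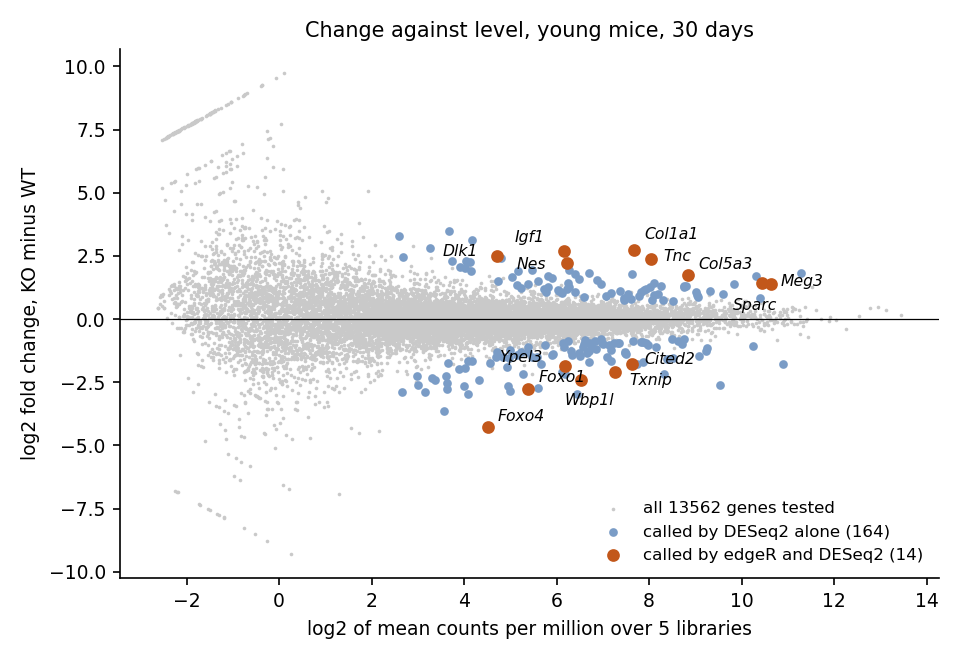
Mean level over the 5 libraries (log2 CPM, x axis) against the log2 fold change of KO minus WT (y axis), 1 point per gene for 13562 genes. The 14 genes that passed edgeR and DESeq2 are named, and 164 further genes that passed DESeq2 alone lie on both sides of 0; the widest scatter is at the lowest levels.

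**Figure D2:**
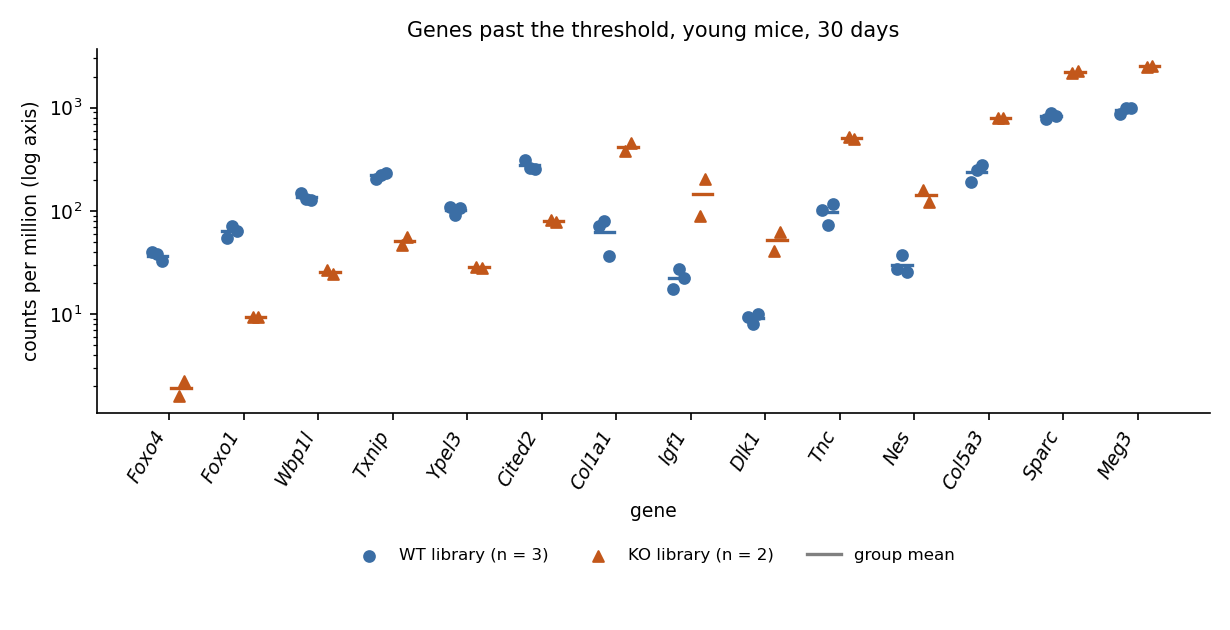
CPM on a log axis for the 14 genes that passed the threshold, 1 point per library (3 WT circles, 2 KO triangles), with a bar at each group mean. No gene shows an overlap between the groups.

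Among the genes that fell, Txnip encodes a thioredoxin-binding protein that restrains glucose uptake and is a known FoxO target. Txnip stood at 205, 224 and 233 CPM in WT and at 47.2 and 55.7 CPM in KO, a 4.30-fold lower level (log2 fold change -2.10 ± 0.24, adjusted p = 0.0312). Cited2, a transcriptional coregulator that binds CBP and p300 and limits HIF activity, stood at 314, 259 and 252 CPM in WT and at 81.6 and 78.1 CPM in KO (-1.79 ± 0.23, adjusted p = 0.0416). For both genes every KO value lay below every WT value, and the KO libraries lay near each other. Wbp1l stood at 149.9, 131 and 128 CPM in WT and at 26.6 and 24.5 CPM in KO (-2.42 ± 0.25, adjusted p = 0.0268). Ypel3, a yippee-like protein linked to growth arrest, stood at 108, 91.9 and 108 CPM in WT and at 28.5 and 28.3 CPM in KO (-1.85 ± 0.25, adjusted p = 0.0464).

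The FoxO core motif GTAAACA was searched on both strands in the 250 bases upstream of gene starts taken from RefSeq (GRCm38.p6), with overlapping matches allowed. Of the 14 genes, 12 had such a window, and Txnip and Dlk1 held the motif, against 256 of 10205 tested genes with a window (2.51%). Among the genes called by DESeq2, it stood in 4 of 79 lower ones (5.06%) and 2 of 60 higher ones (3.33%). Both windows are shown because they hold the motif of the targeted factors beside genes that moved in opposite directions. The motif or its reverse complement TGTTTAC is in capitals.
Txnip, chr3:96557707-96557956, plus strand: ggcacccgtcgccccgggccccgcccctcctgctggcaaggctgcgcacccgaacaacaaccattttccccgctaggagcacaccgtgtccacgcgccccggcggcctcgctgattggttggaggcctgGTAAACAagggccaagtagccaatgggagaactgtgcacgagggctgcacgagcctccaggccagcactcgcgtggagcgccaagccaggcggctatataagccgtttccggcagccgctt
Dlk1, chr12:109452573-109452822, plus strand: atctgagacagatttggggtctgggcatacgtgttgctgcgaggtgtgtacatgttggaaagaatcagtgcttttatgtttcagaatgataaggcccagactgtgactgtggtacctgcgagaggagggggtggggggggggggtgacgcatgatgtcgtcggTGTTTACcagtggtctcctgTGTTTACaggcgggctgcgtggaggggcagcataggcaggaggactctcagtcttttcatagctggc
In Txnip the motif begins 121 bases before the gene start, and in Dlk1 the matches begin 87 and 67 bases before it. A match describes letters in the window and was not tested as a binding site.

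Of the 65 listed FoxO target genes in the table, 58 were tested and 2 fell, Txnip and Cited2, while 0 rose (2 higher at an unadjusted p under 0.05). The count of 2 was 0 without WT2, WT3, KO1 or KO2. DESeq2 passed 7 lower, adding Gadd45a, Map1lc3b, Gabarapl1, Pdk4 and Irs2, and 1 higher, Gadd45g. The median log2 fold change of the list was -0.27, against 0.01 over all genes tested. Both KO libraries lay below all WT libraries for 24 of the 58 (41.4%, against 9.64% of all genes) and above them for 3 (5.17%, against 13.8%).

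By role, the autophagy and protein breakdown targets counted 7 of 13 below WT and 0 above. Gabarapl1, an ATG8-family protein of the autophagosome, stood at 484, 463 and 490.1 CPM in WT and at 258 and 273 CPM in KO (log2 fold change -0.85 ± 0.20, adjusted p = 0.293). Fbxo32, the muscle ubiquitin ligase atrogin-1, stood at 40.4, 48.1 and 43.2 CPM in WT and at 16.7 and 27.1 CPM in KO (-1.01 ± 0.32, adjusted p = 0.596). The groups did not overlap for either gene, and neither passed edgeR. Among the 12 cell cycle brakes, 6 lay below WT and 2 above. Gadd45a, a stress-induced growth arrest gene, stood at 386, 291 and 277 CPM in WT and at 157 and 154 CPM in KO (-1.04 ± 0.24), and its relative Gadd45g went the other way, from 25.7, 47.5 and 55.2 CPM to 123 and 173 CPM (1.79 ± 0.34). Pdk4, the kinase that shuts off pyruvate dehydrogenase, stood at 297, 589 and 593 CPM in WT and at 99.8 and 239 CPM in KO (-1.54 ± 0.43), the lower WT value being that of WT1.

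Extracellular matrix genes made up the largest group among the genes that rose. Of 41 tested members of the matrix and adhesion list, 4 rose (Col1a1, Tnc, Col5a3 and Sparc) and 0 fell (0 lower at an unadjusted p under 0.05), and DESeq2 passed 11 higher and 0 lower. Both KO libraries lay above all WT libraries for 21 members (51.2%, against 13.8% of all genes) and below for 1. The list's median log2 fold change was 0.60. The count of 4 fell to 0 without WT2 or without WT3 and to 1 without KO2.

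Col1a1, the α1 chain of fibrillar collagen I, stood at 70.6, 79.7 and 36.4 CPM in WT and at 379 and 457 CPM in KO, 6.71-fold higher (log2 fold change 2.75 ± 0.33, adjusted p = 0.0371). Tnc, the matrix glycoprotein tenascin-C that appears in the regenerating niche, stood at 102, 73.5 and 118 CPM in WT and at 523 and 497 CPM in KO (2.39 ± 0.25, adjusted p = 0.0268). The lowest KO value of each was more than 4 times the highest WT value. Col5a3, a chain of collagen V, stood at 191, 247 and 280.1 CPM in WT and at 797 and 791 CPM in KO (1.73 ± 0.23, adjusted p = 0.0416). Sparc, a collagen-binding matricellular protein, stood at 772, 895 and 826 CPM in WT and at 2162 and 2292 CPM in KO (1.42 ± 0.19, adjusted p = 0.0416). The collagens as a class counted 11 of 13 above WT with a median of 1.31, and 8 of them passed DESeq2. Col3a1, a fibrillar collagen, stood at 934, 1410.3 and 1379 CPM in WT and at 3421 and 5286 CPM in KO (1.81 ± 0.26, adjusted p = 0.051), and Col4a1 of the basement membrane at 472, 549 and 642 CPM in WT and at 1211 and 1714 CPM in KO (1.40 ± 0.23, adjusted p = 0.0887).

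Collagens are also markers of fibroblasts and fibro-adipogenic cells, which the Sca-1 gate removes. The 26 markers of these cells summed to 2676, 3815 and 3480 CPM in WT and to 6405 and 8353 CPM in KO. Of 25 tested, 1 rose (Col1a1) and 5 passed DESeq2 as higher. Above WT lay 8 (32%, against 13.8% of all genes), and 0 lay below (against 9.64%). The 5 tested markers that are also on the matrix list summed to 1209, 1956 and 1888 CPM in WT and to 4278 and 6449.7 CPM in KO. The 20 tested markers outside the matrix list summed to 1467, 1859 and 1592 CPM in WT and to 2127 and 1903 CPM in KO. Of the defining markers, Pdgfra was at 0.0413, 1.28 and 0 CPM in WT and at 0.954 and 1.00 CPM in KO, Ly6a, which encodes Sca-1, at 4.58, 1.94 and 0 CPM and at 0.649 and 0.154 CPM, and Dcn, the proteoglycan decorin, at 22.01, 67.0 and 63.2 CPM and at 33.6 and 29.7 CPM. KO did not exceed the WT range for these 3. Of the 13 markers with a mean of 10 CPM or more, however, 7 lay above WT and 0 below. Over all genes at that level 12% lay above and 12.3% below. The median log2 fold change of the 13 was 0.65, against -0.02 for all genes at that level. The part of such cells in the matrix result was not tested. In sorted populations more cells of another type and more RNA per cell cannot be told apart from levels alone.

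The growth factor gene Igf1, whose product activates Akt and so excludes FoxO proteins from the nucleus, stood at 17.3, 27.1 and 22.5 CPM in WT and at 89.8 and 202 CPM in KO. The KO libraries differed from each other by more than the WT libraries did, and both lay above them (log2 fold change 2.71 ± 0.37, adjusted p = 0.0464). It was the only one of 50 tested genes of the IGF, PI3K and Akt list to rise, and 0 fell (6 lower at an unadjusted p under 0.05). This count was 0 without WT1, WT2, WT3 or KO2 and 2 without KO1.

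DESeq2 passed 3 members higher and 1 lower. The binding proteins Igfbp3, with 15.04, 9.83 and 5.03 CPM in WT and 40.9 and 67.4 CPM in KO (2.44 ± 0.46), and Igfbp5, with 467, 805 and 704 CPM in WT and 1596 and 2741 CPM in KO (1.72 ± 0.30), lay above WT without overlap. Irs2, the adaptor of the insulin and IGF receptors and a FoxO target, stood at 92.7, 224 and 284 CPM in WT and at 29.95 and 97.0 CPM in KO (-1.66 ± 0.58), where KO2 exceeded WT1. The receptor gene Igf1r stood at 127, 180.1 and 159 CPM in WT and at 79.7 and 97.8 CPM in KO (-0.81 ± 0.26, adjusted p = 0.594). Over the list, 8 members lay above WT (16%, near the 13.8% of all genes) and 11 below (22%, against 9.64%), with a median of -0.25.

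Dlk1, a transmembrane relative of the Notch ligands, stood at 9.33, 8.08 and 10.1 CPM in WT and at 41.1 and 62.5 CPM in KO (log2 fold change 2.50 ± 0.33, adjusted p = 0.0416). Dlk1 (chromosome 12, 109452823 to 109463336) and Meg3 (109541001 to 109571726) are imprinted neighbours, the first expressed from the paternal and the second, a long non-coding RNA, from the maternal chromosome. Meg3 stood at 868, 1001 and 995 CPM in WT and at 2487 and 2547 CPM in KO (1.40 ± 0.18, adjusted p = 0.0416). Nes, the intermediate filament nestin, stood at 27.4, 37.2 and 25.6 CPM in WT and at 159.7 and 123 CPM in KO (2.23 ± 0.27, adjusted p = 0.0371). For all 3 genes the WT libraries were close together and both KO libraries were well above them.

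Of 34 tested genes of the Notch list, which keeps satellite cells quiescent, 2 rose, Dlk1 and Col5a3, and 0 fell (0 lower at an unadjusted p under 0.05 or by DESeq2). The count of 2 was 0 without WT2, WT3, KO1 or KO2. The receptors overlapped between genotypes: Notch1 stood at 210.1, 325 and 346 CPM in WT and at 335 and 345 CPM in KO, and Notch3 at 378, 912 and 939 CPM in WT and at 351 and 662 CPM in KO. Among the 9 targets, 5 lay above WT and 0 below. The transcriptional repressor Hes1 stood at 16.7, 35.95 and 21.4 CPM in WT and at 39.0 and 50.2 CPM in KO (log2 fold change 0.85 ± 0.37, adjusted p = 0.851). Of the 16 processing and nuclear partners, 0 lay above WT and 4 below. The whole list had 17.6% above and 14.7% below, near the 13.8% and 9.64% of all genes.

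Of 46 tested quiescence-associated genes, 0 passed edgeR in either direction (3 higher and 13 lower at an unadjusted p under 0.05), whereas DESeq2 passed 9 lower and 0 higher. Over all 13562 genes tested, 429 were higher and 358 lower at that unadjusted p. The 9 were Cd34, Cxcr4, Tek, Spry1, Gpx3, Gas1, Bmp4, Myf5 and Pdk4. Both KO libraries lay below all WT libraries for 15 members (32.6%, against 9.64% of all genes) and above for 5 (10.9%, against 13.8%).

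Cd34 stood at 57.2, 183 and 162 CPM in WT and at 17.7 and 16.4 CPM in KO. The WT libraries spread over more than 3-fold, with WT1 the lowest, and the KO libraries nearly coincided below it. The fitted log2 fold change of -2.97 ± 0.49 had an adjusted p of 0.0887, which was 0.0122 without WT1 (-3.34) and 0.465 without WT2 (-2.68). The gate required CD34 protein on the surface of every cell collected, so these levels are those of cells that passed it. Spry1 is an inhibitor of receptor tyrosine kinase signalling that keeps satellite cells quiescent. Spry1 stood at 151, 359 and 379.9 CPM in WT and at 73.1 and 101 CPM in KO (-1.77 ± 0.41, adjusted p = 0.271). In edgeR its adjusted p was 0.0341 without WT1, but 0.465 without WT2 and 0.82 without WT3. Its log2 fold change was -1.56 without KO1 and -2.004 without KO2. Again WT1 was the lowest WT library and lay above both KO libraries.

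Gpx3, a secreted glutathione peroxidase, stood at 3361, 2298 and 2306 CPM in WT and at 866 and 693 CPM in KO (-1.77 ± 0.25, adjusted p = 0.051). The chemokine receptor Cxcr4 stood at 785, 313 and 300.0 CPM in WT and at 94.4 and 113 CPM in KO (-2.17 ± 0.45), with WT1 the highest. Tek, the angiopoietin receptor that quiescent satellite cells and endothelium share, stood at 64.5, 61.4 and 85.8 CPM in WT and at 18.9 and 22.7 CPM in KO (-1.76 ± 0.29, adjusted p = 0.0887). All 21 endothelial markers, Tek among them, summed to 223, 172 and 131 CPM in WT1 to WT3 and to 122 and 89.6 CPM in KO. Tek held 64.5, 61.4 and 85.8 CPM of this sum in WT and 18.9 and 22.7 CPM in KO, so the sum is no separate view of it. For Cdh5, VE-cadherin, WT ran from 0 to 15.5 CPM and KO held 3.52 and 1.85 CPM. Without WT1, 4 genes of the quiescence list passed edgeR as lower.

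Differences were smaller for the lineage factors. Pax7 stood at 43.4, 63.5 and 62.6 CPM in WT and at 14.3 and 39.6 CPM in KO (log2 fold change -1.07 ± 0.44, adjusted p = 0.828), so that the KO libraries differed from each other by more than KO2 did from WT1. Myf5, a myogenic factor of satellite cells, stood at 244, 148 and 170.1 CPM in WT and at 96.6 and 96.1 CPM in KO (-0.96 ± 0.28, adjusted p = 0.492). Myod1 stood at 2342, 1474 and 1451 CPM in WT and at 2097 and 2342 CPM in KO, and Myog at 49.7, 22.4 and 29.4 CPM in WT and at 49.0 and 76.0 CPM in KO, with overlap in both. Calcr, the calcitonin receptor of quiescent cells, stood at 91.6, 124 and 127 CPM in WT and at 33.6 and 99.3 CPM in KO, and the groups overlapped.

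**Figure D3:**
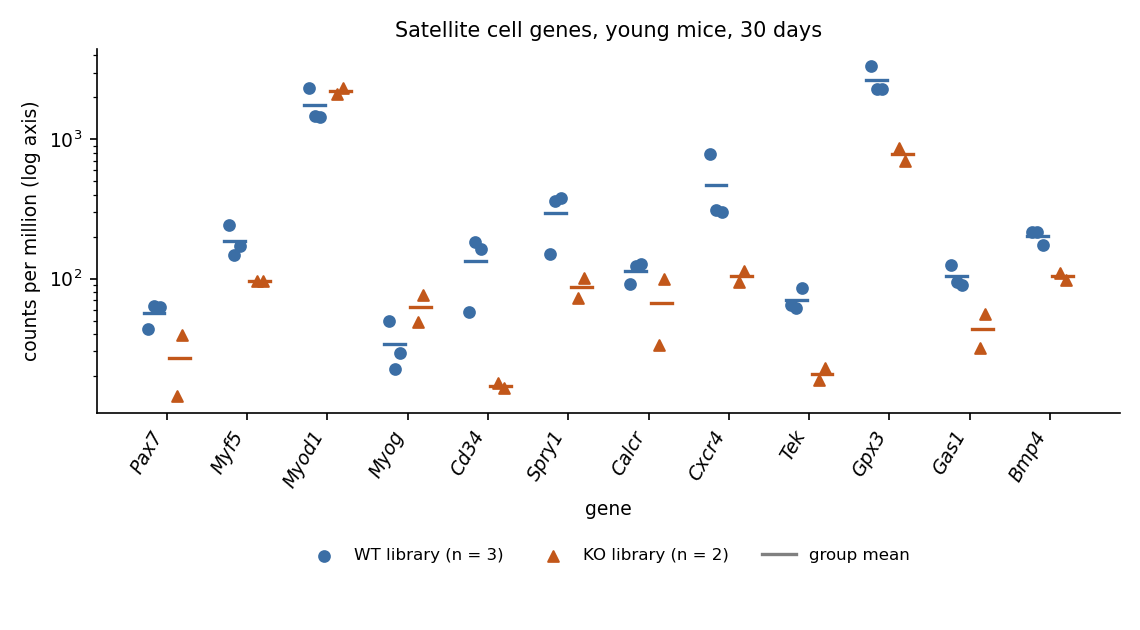
CPM on a log axis for 12 genes of satellite cells, 1 point per library (3 WT circles, 2 KO triangles), with a bar at each group mean. Cd34, Cxcr4, Tek and Gpx3 separate the groups widely, while Myod1, Myog and Calcr overlap; none of the 12 passed edgeR.

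Of 55 tested cell cycle genes, 0 passed edgeR (7 higher and 0 lower at an unadjusted p under 0.05), and DESeq2 passed 2 higher, Ccnd1 and Mki67. Ccnd1, cyclin D1 of the G1 phase, stood at 32.9, 54.4 and 67.8 CPM in WT and at 171 and 198 CPM in KO (1.83 ± 0.31, adjusted p = 0.106). Mki67, the proliferation marker Ki-67, stood at 5.59, 7.18 and 6.28 CPM in WT and at 21.0 and 42.2 CPM in KO (2.31 ± 0.41, adjusted p = 0.109). In both genes the lowest KO value was more than 2 times the highest WT value. Pcna, the replication clamp, stood at 278, 267 and 207 CPM in WT and at 304 and 275 CPM in KO and overlapped. Many members were near the detection limit: 7 of the 55 passed the filter on low counts through the KO libraries alone, and the KO libraries also held more genes with at least 10 counts. Among the 16 members with a mean of 10 CPM or more, 5 lay above WT and 1 below, against 12% and 12.3% of all genes at that level, and their median log2 fold change was 0.21, against -0.02.

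Genes of myogenic commitment gave 0 calls of 39 tested in edgeR (4 higher and 1 lower at an unadjusted p under 0.05). DESeq2 passed Itm2a as higher, with 150.2, 155 and 183 CPM in WT and 416 and 471 CPM in KO (1.45 ± 0.21, adjusted p = 0.0539), and Myf5 as lower. For the 23 members with a mean of at least 10 CPM the median was -0.10. Mature myofibre genes gave 0 calls of 27 tested in edgeR and DESeq2 (7 higher and 1 lower at an unadjusted p under 0.05), and 8 of the 27 passed the filter through the KO libraries alone. Of the 11 at 10 CPM or more, 6 lay above WT and 0 below, against 12% and 12.3% of all genes at that level, with a median of 0.58, against -0.02. Tpm1, a tropomyosin, stood at 52.2, 82.1 and 80.1 CPM in WT and at 136 and 105 CPM in KO (0.75 ± 0.28, adjusted p = 0.774), and Tpm3 at 789, 970.0 and 847 CPM in WT and at 1023 and 1011 CPM in KO (0.23 ± 0.20).

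**Figure D4:**
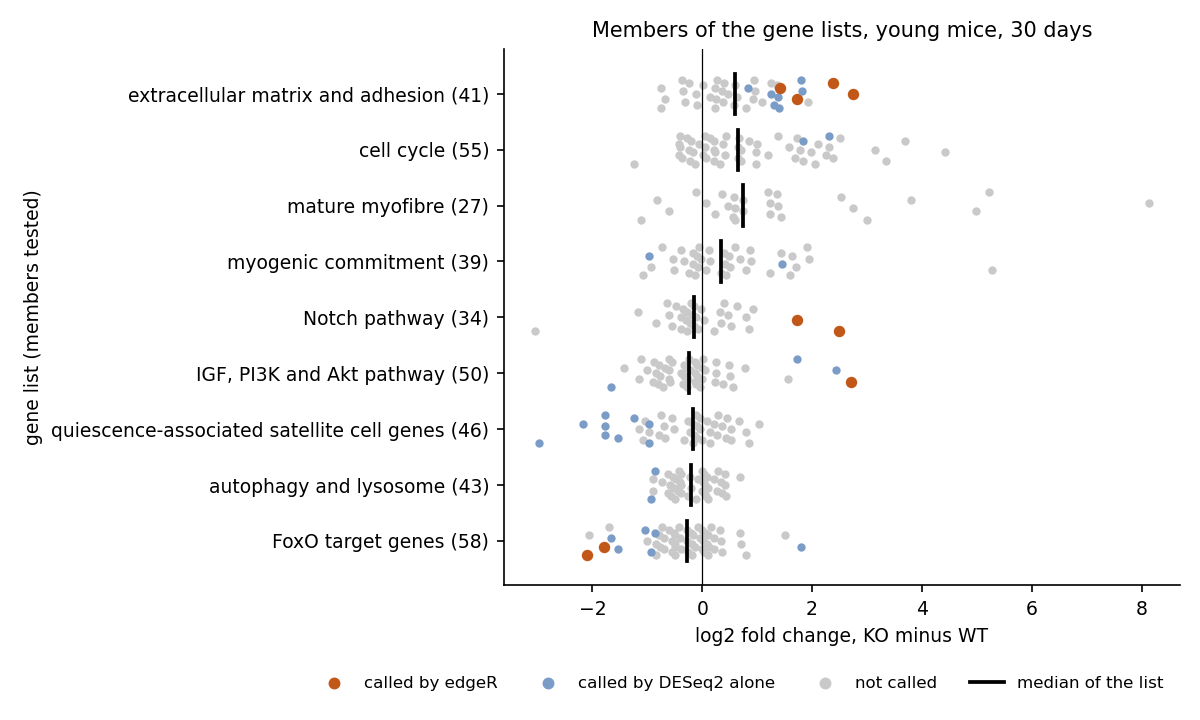
Log2 fold change of KO minus WT (x axis) for every tested member of 9 gene lists (rows, number tested in brackets), with a black bar at the median of each list. Members called by edgeR lie to the right in the matrix, Notch and IGF lists and to the left among FoxO targets; the far right points of the cell cycle and myofibre lists are genes near 0 CPM in WT.

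Of 43 tested genes of autophagy and lysosome, 0 passed edgeR (0 higher and 6 lower at an unadjusted p under 0.05) and 2 passed DESeq2 as lower, Map1lc3b and Gabarapl1, which are also on the FoxO target list. Among the 25 autophagy genes 11 lay below WT and 0 above, and among the 18 lysosomal genes 3 lay below and 2 above. Over all genes 9.64% lay below and 13.8% above, and the lysosomal counts are near those shares. Sqstm1, the cargo receptor p62, stood at 3091, 2713 and 2716 CPM in WT and at 1771 and 1991 CPM in KO (log2 fold change -0.59 ± 0.19, adjusted p = 0.594). The lysosomal membrane protein Lamp2 stood at 623, 589.6 and 623 CPM in WT and at 511 and 623 CPM in KO, with overlap.

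Of 29 tested genes of senescence and its secretory phenotype, 0 passed edgeR (7 higher and 1 lower at an unadjusted p under 0.05) and 3 passed DESeq2 as higher, Igfbp3, Igfbp5 and Timp1. Above WT lay 11 of the 29 (37.9%, against 13.8% of all genes) and below lay 3 (10.3%, against 9.64%). Of the 15 with a mean of 10 CPM or more, 8 lay above and 2 below, against 12% and 12.3% of all genes at that level. Redox defence gave 0 calls of 33 in edgeR (3 higher and 2 lower at an unadjusted p under 0.05) and 2 lower in DESeq2, Gpx3 and Sod3, and Hmox1, heme oxygenase 1, ran from 1909 to 5988 CPM in WT, with WT1 the highest, and stood at 2583 and 1360.2 CPM in KO. The heat shock proteins Hspa8, with 6501, 8929 and 8276 CPM in WT and 10389 and 10132 CPM in KO, and Hsp90aa1, with 1675, 2129 and 1977 CPM in WT and 2468 and 2731 CPM in KO, lay above WT by 0.38 and 0.43 on the log2 scale without passing. The immediate early and dissociation stress list had 7 of 49 members above WT and 7 below (14.3% each, against 13.8% and 9.64% of all genes), and 0 passed edgeR (3 higher and 3 lower at an unadjusted p under 0.05), against 1 higher and 2 lower by DESeq2.

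The median log2 fold change was 0.11 for 45 oxidative phosphorylation genes, with 0 called by edgeR or DESeq2 and 2 higher at an unadjusted p under 0.05. It was 0.09 for 76 cytosolic ribosomal protein genes, with 0 called by either and 5 higher and 1 lower at an unadjusted p under 0.05. Atp5a1 of the ATP synthase stood at 794, 691 and 673 CPM in WT and at 711 and 618 CPM in KO. The interferon and antigen presentation list had a median of 0.23 and 0 of 41 called by edgeR or DESeq2 and 0 at an unadjusted p under 0.05. Markers of pericytes and smooth muscle summed to 1861, 3166 and 2859 CPM in WT and to 2971 and 2616 CPM in KO. Des, also a satellite cell marker, held 1078, 1667 and 1455 CPM of this sum in WT and 1627 and 1079 CPM in KO. Notch3 held 378, 912 and 939 CPM of it in WT and 351 and 662 CPM in KO. Of the 14 tested, 6 lay above WT (42.9%, against 13.8% of all genes) and 1 below (7.14%, against 9.64%). DESeq2 passed 2 as higher, among them Acta2, smooth muscle actin, with 165, 185 and 120.0 CPM in WT and 348 and 307 CPM in KO. Markers of Schwann cells summed to 617 to 969 CPM in WT and to 845 and 976 CPM in KO. Of these markers 6 of 18 lay above WT (33.3%, against 13.8% of all genes) and 0 below (against 9.64%). Their median log2 fold change was 0.67, against 0.01 over all genes tested. Immune markers stayed at or under 58.5 CPM in sum, and 9 of 10 red blood cell markers were at 0 in all 5 libraries.

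Since the series sorts wild-type cells by CD34, genes that distinguished young CD34Lo from CD34Hi cells in its second experiment were followed here, as a description. That comparison, fitted without pairing, called 30 of 12857 genes (0.233%), 15 higher and 15 lower in CD34Lo. Of the 14 higher ones tested at 30 days, 9 had a positive log2 fold change in KO, 4 lay above WT (28.6%, against 13.8% of all genes) and 1 below, with a median of 0.32. Of the 15 lower ones, 10 had a negative log2 fold change, 3 lay below WT (Cd34, Calcrl and Tspan7; 20%, against 9.64% of all genes) and 0 above, with a median of -0.14. None of the 29 passed edgeR at 30 days, and Cd34 and Acta2 passed DESeq2. The differentiation genes with the largest rise in CD34Lo, the fusion protein gene Tmem8c (log2 fold change 10.3 between the gates and -0.02 in KO) and Myog (7.75 and 0.88), overlapped between KO and WT. Cd34 itself was -1.37 between the gates and -2.97 in KO.

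The KO effect was set beside that of 2 other experiments which share no library with this one. One compared 2 KO and 2 WT libraries of young Pax7ROSAYFP mice, whose Pax7 lineage carries a fluorescent label, 4 days after tamoxifen by the table title. The other compared 3 KO and 3 WT libraries of old mice, 22 months by its table title. That title reads WT against KO_APP, does not explain APP and does not name FoxO. The FoxO genotype of these libraries comes from the sample labels of the experiment. At 4 days 1 of 13833 genes passed edgeR (0.00723%), which was Xist, at 1.70 and 1.82 CPM in WT and 348 and 173 CPM in KO. Without the first or second WT library the count was 41 or 2062, and without the first or second KO library 64 or 31. Those KO libraries also held the Y-linked Ddx3y, at 277 and 321 CPM, against 227 and 329 CPM in WT. Whether they pooled cells of both sexes was not tested, so sex may have moved with genotype there. In old mice 141 of 13373 genes passed (1.05%), a count that was 107, 339 or 39 without its first, second or last WT library and 13, 55 or 11 without its first, second or last KO library. Levels were scaled within each experiment, so only differences between KO and WT are compared.

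All 14 genes had the same sign at 4 days, and for 13 of them, Col5a3 being the exception, the KO libraries lay on the same side of WT without overlap, against 20.4% of all genes above and 20.9% below at that time. Each of the 14 fitted changes was smaller at 4 days, but the genes were chosen for passing at 30 days, which favours larger values there, and their order of size is no test. Foxo4 stood at 53.8 and 60.8 CPM in WT and at 17.7 and 27.7 CPM in KO at 4 days (-1.33 ± 0.23), and Foxo1 at 102 and 82.4 CPM and at 30.01 and 59.2 CPM (-1.04 ± 0.31). Both FoxO transcripts thus lay below WT in KO at 4 days, with smaller fitted changes than at 30 days. Neither difference between the times passed edgeR (adjusted p = 0.162 for Foxo4, and 0.833 for Foxo1 at -1.69 ± 0.42). Tnc differed by 1.55 ± 0.38 at 4 days and Igf1 by 1.03 ± 0.33. Txnip differed by -0.49 ± 0.16, Cd34 by -0.71 ± 0.27 and Col5a3 by 0.05 ± 0.19.

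The difference between the 30-day and 4-day effects was tested directly, and 0 of 14630 genes passed edgeR (665 at an unadjusted p under 0.05) or limma voom, while DESeq2 passed 41. The lowest adjusted p was 0.162, shared by Wbp1l (difference of log2 fold changes -2.01 ± 0.25), Foxo4 (-2.93 ± 0.41), Fanci and Serinc4. Fanci and Serinc4 stood at or under 1.42 CPM in every library at 30 days. Gpld1 (6.55 ± 0.97, adjusted p = 0.214) was at or under 2.73 CPM at 30 days, and Iqcg and Phtf1os (adjusted p = 0.382 for both) did not pass the filter on low counts there. Txnip differed by -1.60 ± 0.25 (adjusted p = 0.292) and Col5a3 by 1.71 ± 0.30 (adjusted p = 0.382). Slc43a2 (-1.90 ± 0.37, adjusted p = 0.587) and Mylk4 (-2.73 ± 0.55, adjusted p = 0.604) were other differences downward that did not pass.

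In old mice all 14 genes again had the same sign as at 30 days, and 7 lay on the same side without overlap, against 13.6% of all genes above and 10.3% below in that experiment. Dlk1, Nes, Tnc and Wbp1l passed in both, that is 28.6% of the 14 and 2.84% of the 141. Tnc stood at 106, 275 and 204 CPM in WT and at 2881, 1336 and 806 CPM in KO of old mice (3.10 ± 0.52, adjusted p = 0.0328), and Dlk1 at 4.802, 6.64 and 8.29 CPM and at 167, 411 and 155 CPM (5.21 ± 0.48, adjusted p = 0.00445). Neither gene overlapped between genotypes at either age. Cd34 fell in old mice (-4.24 ± 0.78, adjusted p = 0.041), from 162, 131 and 104 CPM to 1.42, 16.3 and 3.18 CPM, as did Gpx3 (-2.33 ± 0.39, adjusted p = 0.0328).

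The targeted genes themselves had smaller fitted changes in old mice. Neither difference from the 30-day effect passed edgeR (adjusted p = 0.288 for Foxo4, and 0.45 for Foxo1 at -2.15 ± 0.46). Foxo4 stood at 49.3, 34.6 and 20.4 CPM in WT and at 27.3, 15.7 and 16.7 CPM in KO (-0.80 ± 0.38), and Foxo1 at 62.1, 51.5 and 32.4 CPM and at 47.0, 24.4 and 28.8 CPM (-0.54 ± 0.35). Both overlapped between genotypes there, unlike in young mice at 30 days. Txnip also overlapped, with 189, 439 and 127 CPM in WT and 242, 188 and 257 CPM in KO (-0.13 ± 0.42).

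The difference between the young 30-day effect and the effect in old mice passed edgeR for 0 of 14768 genes (1165 at an unadjusted p under 0.05) and limma voom for 0, and DESeq2 passed 54. The lowest adjusted p was 0.288, reached by Foxo4 (-3.40 ± 0.55), Popdc3 (2.60 ± 0.49), Spon1 (-6.002 ± 1.09), Pappa (-5.82 ± 1.06), Frmd8 (-2.81 ± 0.52) and Csmd1 (-4.46 ± 0.83). Dlk1 differed by -2.65 ± 0.55 and Txnip by -1.90 ± 0.54 (adjusted p = 0.45 and 0.589). Rpl21 (1.602 ± 0.34), Sfr1 (1.47 ± 0.31), Rras2 (1.61 ± 0.35) and Nasp (1.27 ± 0.29) were other differences upward that did not pass. Between these tables age and experiment differed together. The title of the old-mouse table gives no time since tamoxifen, so that time may differ as well. Between the 30-day and 4-day tables time, lineage label and experiment differed together. In neither case can these be told apart.

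**Figure D5:**
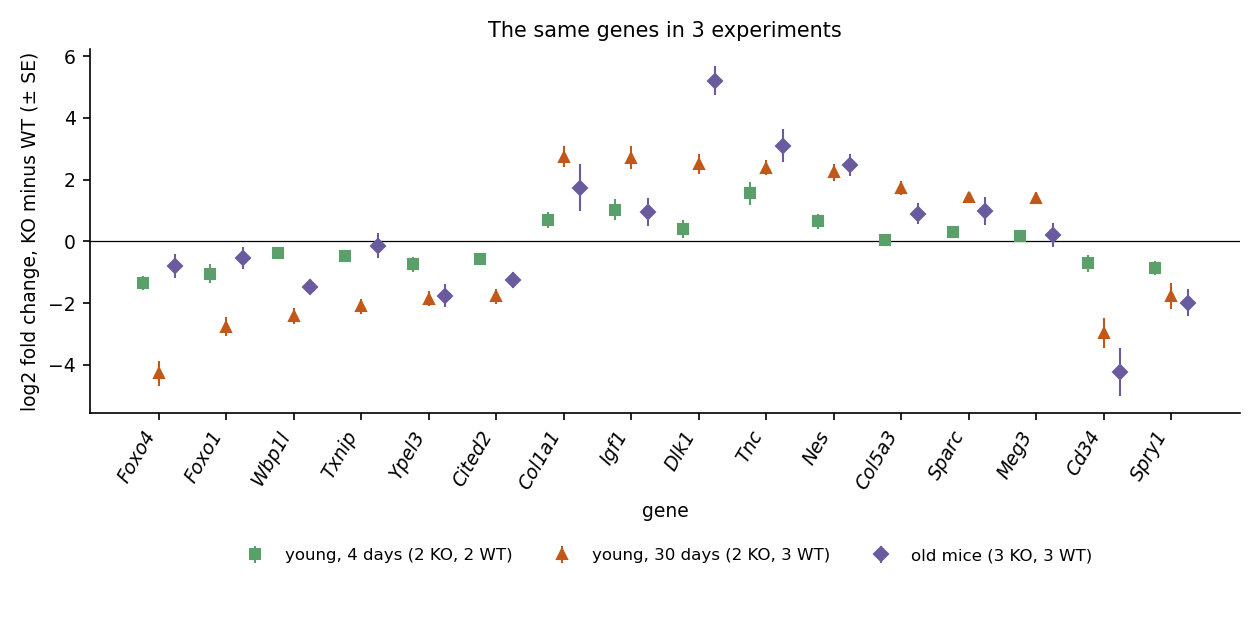
Log2 fold change of KO minus WT with its standard error (y axis) for the 14 genes that passed at 30 days and for Cd34 and Spry1, in young mice at 4 days (squares, 2 KO and 2 WT), young mice at 30 days (triangles, 2 KO and 3 WT) and old mice (diamonds, 3 KO and 3 WT). The 14 genes share their sign in the 3 experiments; Foxo1, Foxo4 and Txnip lie farthest from 0 at 30 days and Dlk1 in old mice.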

How the data were processed

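RNA-seq counts per gene symbol were taken as the authors deposited them, 1 table per experiment with 24421 symbols. The submitters' processing notes name TopHat2 2.1.1, HTSeq, bcl2fastq 2.17.1, Partek 7.0, Trim Galore and the mm10 build. Their order and options, the annotation and the strand setting are not stated there. Per the labels' protocols, RNA was isolated with a Qiagen kit or SMART-Seq v4, which of the 2 served which library not being given, and libraries were made with Nextera XT. PCR duplicates cannot be told from separate molecules, and genes that share sequence or overlap may share counts.

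From the counts, edgeR 4.0.16 (R 4.3.3) fitted KO against WT with the quasi-likelihood test on the 5 libraries alone, after TMM scaling and filterByExpr (minimum count 10, minimum total 15), which left 13562 symbols. Adjusted p-values are Benjamini-Hochberg over all genes tested, with a threshold of 0.05 and 3 residual degrees of freedom. Fold changes are log2 of KO over WT. The standard error is the absolute log2 fold change divided by the square root of the quasi-likelihood F statistic. CPM are on the TMM scale. "Above" and "below" WT mean that both KO libraries lay beyond all 3 WT libraries. Differences between experiments were tested as the interaction of experiment and genotype. The fit was tested on simulated data, where DESeq2 recovered more of the changed genes than edgeR and also called many more unchanged ones, so genes that passed DESeq2 alone are the less certain. Alternatives were RLE and upper-quartile scaling, 2 filters, DESeq2 1.42.0, limma 3.58.1 voom and leaving out each library.

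Genes named were the 12 largest changes per direction among those past the threshold with a mean of at least 5 CPM and no overlap, up to 3 per list and direction past it (or else the 2 of the highest mean CPM), 5 per direction for each interaction, and Foxo1, Foxo3, Foxo4, Foxo6, Pax7, Cd34, Myf5, Myod1, Myog, Spry1 and Calcr always. The genes, 25 lists and tests were chosen with earlier results of these data known. Promoter windows came from RefSeq (GRCm38.p6), and gene positions from GENCODE on the same build. 1 gene that the rule names is not reported here.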

Additional observations from a re-analysis of the deposited data

How the results depend on the processing

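For KO against WT at 30 days, the 14 genes called by edgeR became 119 with no filter on low counts, 178 with DESeq2 and 34 with limma voom, and 0 to 26 when 1 library was left out. RLE scaling gave 18, upper-quartile scaling 15 and a filter of 1 CPM in 2 libraries 21. All 14 genes kept their direction in the 11 alternatives run, and 103 of their 154 values there passed the threshold. Over the 56 named genes, 541 of 615 values stayed on the same side of the threshold in the same direction, 51 lost it, 23 gained it and 0 reversed. Only the 14 called genes could lose the threshold, so all 51 losses were among their 154 values. The other named genes had not passed to begin with, so the 541 says little of how stable the calls are. The cause of these shifts was not tested.

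Among the lists, the matrix count of 4 higher was 10 with no filter and 11 with DESeq2, and the FoxO target count of 2 lower was 4 and 7. The IGF pathway count of 1 higher was 3 with no filter or DESeq2 and 2 with limma voom, and the autophagy count of 0 lower was 2 with DESeq2. The quiescence count of 0 lower was 7 with no filter, 9 with DESeq2, 2 with limma voom, 1 with RLE scaling or the 1 CPM filter and 4 without WT1. The cell cycle count of 0 higher was 2 with no filter or DESeq2 and 1 with limma voom.

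The test of 30 days against 4 days gave 5 genes with no filter and 41 with DESeq2, against 0 otherwise and in each omission. The test against old mice gave 9 with no filter and 54 with DESeq2, and 0 to 5 when 1 library was left out, the 5 being without the second KO library of old mice. At 4 days the single call became 2 with upper-quartile scaling, 34 with no filter, 37 with DESeq2 and 0 with limma voom, and 31 to 2062 when 1 library was left out. In old mice the 141 calls became 455 with no filter, 960 with DESeq2 and 234 with limma voom, and 11 to 339 when 1 library was left out. The 30 calls between CD34 gates became 108 with DESeq2 and 5 to 75 when 1 library was left out. Alternatives for the 4-day, old-mouse and CD34 counts were chosen after seeing the data.

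No paired analysis was run for the 30-day, old-mouse and CD34 comparisons, whose columns carry no replicate number shared by the groups. In the CD34 experiment the sample titles alternate between CD34Hi and CD34Lo in number order. They do not say whether neighbours came from the same mice, and pairing there was not tested. The 4-day columns are numbered 1 and 2 in each genotype, and with that number as a replicate block 3 genes passed in place of 1. Deviations of same-numbered libraries correlated at -0.03 across 13833 genes, so the libraries share only a number.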

Other observations

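Other transcripts of the imprinted region that holds Dlk1 and Meg3 were looked up after the values of those 2 genes were seen. Rian, a maternally expressed non-coding RNA (chromosome 12, 109603940 to 109661716), stood at 584, 551 and 525 CPM in WT and at 965 and 1252 CPM in KO, with a log2 fold change of 1.00 ± 0.20 and an adjusted p of 0.18 in edgeR. Mirg (109729764 to 109749460), a further non-coding RNA of the region, stood at 28.0, 31.8 and 24.5 CPM in WT and at 90.0 and 67.5 CPM in KO, with 1.49 ± 0.27 and an adjusted p of 0.119. Both passed DESeq2 and not edgeR, and for both the KO libraries lay above all WT libraries. In old mice Dlk1 differed by 5.21 ± 0.48, while Meg3 differed by 0.20 ± 0.39.

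Ctgf, a matricellular protein and well-known target of YAP signalling, was noticed in the same way among genes that passed DESeq2 alone. Ctgf stood at 1378, 1019.9 and 929 CPM in WT and at 102 and 259.6 CPM in KO, with a log2 fold change of -2.62 ± 0.41 and an adjusted p of 0.0689 in edgeR. It lay below WT although 21 of 41 matrix genes lay above.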
